A study of Mus musculus with 6 samples.

Results

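The imprinted growth genes examined here were *H19*, *Igf2*, *Dlk1*, *Meg3*, *Peg3*, *Mest*, *Cdkn1c*, *Grb10*, *Plagl1* and *Ndn*. They were taken by gene symbol, and all 10 were found among the 55487 genes of the count table. An imprinted gene is transcribed mainly from the copy inherited from 1 parent, under DNA methylation marks set in the germ line, and neighbouring imprinted genes often share 1 control region. In mice, many paternally expressed genes promote growth before birth and many maternally expressed genes restrain it. Several of these genes are highly transcribed in fetal and newborn mesodermal tissue and are shut down as the animal matures, so that a neonatal joint is a tissue in which they are usually abundant.

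RNA was sequenced from the cartilaginous tissue of the knee joint of mice at postnatal day 6 (P6), in 3 *Hbb*-cKO and 3 WT libraries. In *Hbb*-cKO mice, *Hbb*, which encodes the β-chain of haemoglobin, was conditionally deleted in chondrocytes, and WT mice were labelled as wild type. In the study, mice with floxed *Hbb* were bred to *Prx1*-Cre, which acts in early limb mesenchyme, or to *Col2a1*-CreERT2, a tamoxifen-dependent Cre of chondrocytes. The study gives the name *Hbb*-cKO to the cross with *Col2a1*-CreERT2, and the labels of the libraries give chondrocytes as the site of deletion without naming a Cre line. The sources used here do not say how many mice stand behind a library, and p-values measure the spread between libraries. The question put to the imprinted genes was whether their transcript levels differed with the deletion. The unit of a level is CPM, that is, counts divided by the normalised library size and scaled up. Means are ± s.e.m. over n = 3 libraries of each genotype. A gene was called when its adjusted p was below 0.05 in the quasi-likelihood test of edgeR over 17175 genes with Benjamini-Hochberg adjustment.

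The libraries held 17405688 to 20969914 counts in *Hbb*-cKO and 16544800 to 17475496 in WT. Transcripts of *Hbb-bs* and *Hbb-bt*, the adult β-globin genes, summed to 4195, 5444 and 5014 CPM in the 3 *Hbb*-cKO libraries, against 16811, 12449 and 6912 CPM in the 3 WT libraries, which do not overlap, while neither gene was called by edgeR (adjusted p = 0.218 and 0.241). All 13 chondrocyte markers were detected, with a summed level of 21055 to 68238 CPM in *Hbb*-cKO, against 39780 to 51070 CPM in WT. The 16 skeletal muscle markers summed to 33864 to 43050 CPM in *Hbb*-cKO, against 37778 to 60496 CPM in WT, so the tissue was not chondrocytes alone. Y-linked transcripts were found in all 3 *Hbb*-cKO libraries and in WT replicate 3, and were at 0 counts in WT replicates 1 and 2. Y-linked expression thus went partly with genotype and cannot be fully told apart from it. *Xist*, the RNA that coats the silenced X chromosome in female cells, had 5052, 6 and 8079 counts in *Hbb*-cKO, against 10430, 8739 and 2725 counts in WT, so that *Hbb*-cKO replicates 1 and 3 and WT replicate 3 held transcripts of both kinds. Since the tissue was sequenced as a whole, fewer cells of a type and less RNA per cell cannot be told apart.

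All 10 imprinted genes passed the filter on low counts, and together they took 1.24%, 1.33% and 1.28% of the counts in the *Hbb*-cKO libraries and 0.911%, 1.28% and 1.52% in the WT libraries. None of the 10 was called by edgeR, where 0.105% of all tested genes were called, 0.0349% as higher and 0.0699% as lower in *Hbb*-cKO. At an unadjusted p below 0.05, 2 of the 10 passed, *Dlk1* lower and *Mest* higher in *Hbb*-cKO, where 10.1% of all genes passed, 5.22% as lower and 4.89% as higher. DESeq2 called 1 of the 10, *Dlk1*, and 1.45% of all genes. The libraries of the genotypes did not overlap for 3 of the 10, with *Mest* and *Cdkn1c* higher and *Dlk1* lower in *Hbb*-cKO, where 17.7% of all genes did not overlap. The log2 fold changes of *Hbb*-cKO over WT were positive for 5 and negative for 5, with a median of -0.03, against -0.01 over all tested genes. The median of the 10 was -0.18 in a fit with a covariate for Y-linked expression. Only WT replicate 3 among the WT libraries held Y-linked transcripts, as the *Hbb*-cKO libraries did. Genotype differences from the fit with this covariate therefore lean on that 1 library.

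**Figure D1:**
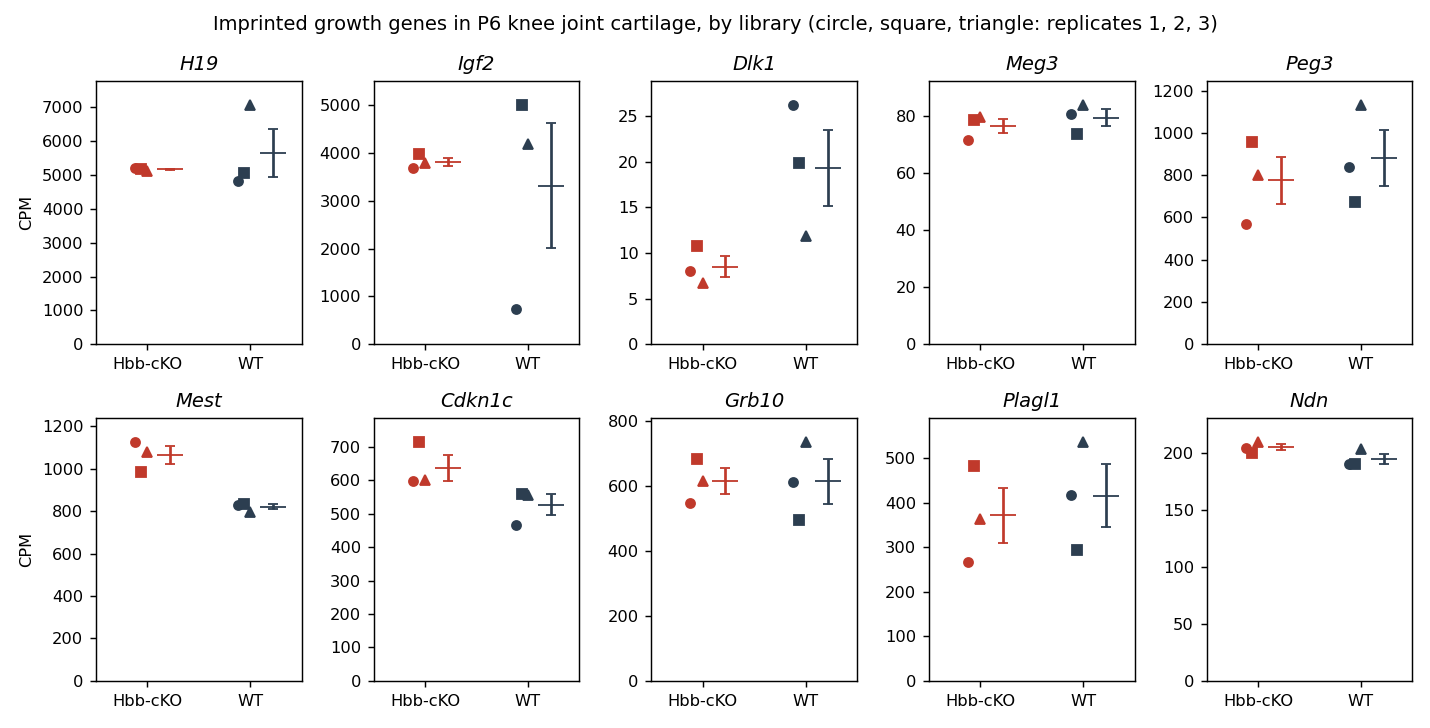
Level of each imprinted gene in CPM on linear axes that start at 0, with *Hbb*-cKO libraries (red) left of WT libraries (dark blue). Circles, squares and triangles are replicates 1, 2 and 3, and the bar beside them is the mean ± s.e.m. of 3 libraries. *Dlk1* is lower and *Mest* and *Cdkn1c* are higher in all *Hbb*-cKO libraries, and *Igf2* is at 737 CPM in WT replicate 1 alone.

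**Figure D2:**
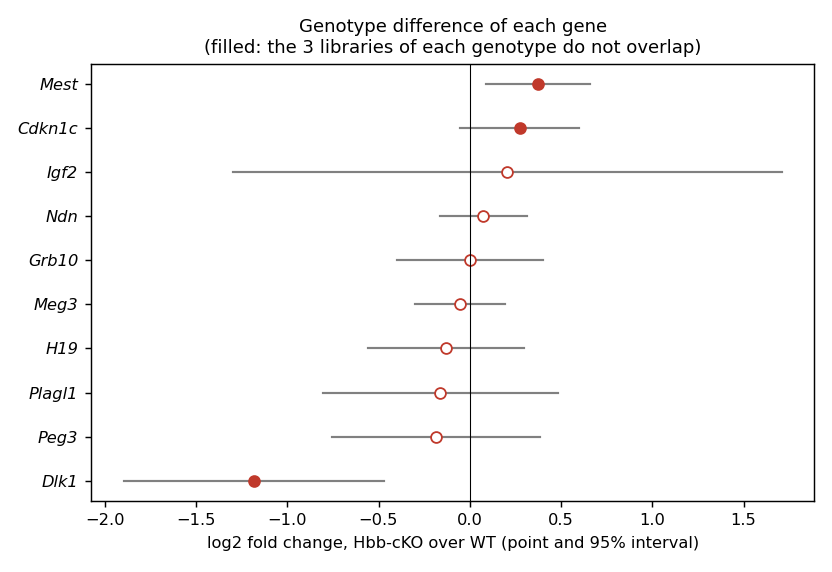
Log2 fold change of *Hbb*-cKO over WT for the 10 imprinted genes, with the 95% interval of the edgeR fit as a grey line. Filled points are genes whose *Hbb*-cKO and WT libraries do not overlap. The intervals of *Mest* and *Dlk1* lie to one side of 0, and that of *Igf2* is the widest, at -1.30 to 1.71.

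The genes differed widely in level. Per kilobase of exon, *H19* had 2200 CPM on average over the 6 libraries and *Igf2* had 623 CPM. *Cdkn1c* (286 CPM per kb) and *Mest* (239 CPM per kb) came next and overlapped in range. *Grb10*, *Peg3*, *Ndn* and *Plagl1* followed at 67.8, 62.2, 54.2 and 50.4 CPM per kb, and the ranges of these 4 over the libraries overlapped as well. *Meg3* (4.31 CPM per kb) and *Dlk1* (2.46 CPM per kb) were the lowest. The range of *H19*, 1963 to 2873 CPM per kb, lay above that of *Igf2*, 129 to 874 CPM per kb, in which the lowest value was WT replicate 1.

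*H19* and *Igf2* are neighbours on chromosome 7 and share a control region. *H19* (ENSMUSG00000000031, GRCm38 chr7:142575529-142578143, minus strand) is a non-coding RNA expressed from the maternal copy. It was at 5192, 5185 and 5120 CPM in the *Hbb*-cKO libraries, against 4828, 5072 and 7068 CPM in the WT libraries. The 3 *Hbb*-cKO values were close together and lay inside the WT range, in which WT replicate 3 stood above the rest. The log2 fold change was -0.13 (SE 0.18, 95% interval -0.56 to 0.29, adjusted p = 0.869, edgeR), without WT replicate 3 it was 0.06, and with a covariate for Y-linked expression -0.40. The skeletal muscle markers also summed highest in WT replicate 3 (60496 CPM). With these markers as a covariate, the log2 fold change of *H19* was -0.04, and whether muscle content sets the *H19* level was not tested. The genes with the profile nearest to *H19* over the 6 libraries were *Mllt11* and *Atp5b*, a subunit of the mitochondrial ATP synthase. Their root mean square differences in centred log2 CPM were 0.0270 and 0.0299.

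*Igf2* (ENSMUSG00000048583, chr7:142650766-142666816, minus strand) encodes insulin-like growth factor 2, the main growth factor of the fetus, and is expressed from the paternal copy. It was at 3688, 3970 and 3798 CPM in the *Hbb*-cKO libraries, against 737, 5003 and 4196 CPM in the WT libraries. A single library, WT replicate 1, stood apart, with 12312 counts where the others held 64896 to 82277. The log2 fold change was 0.21 (SE 0.62, adjusted p = 0.949, edgeR) with this library and -0.26 (adjusted p = 0.739, edgeR) without it, so that its sign rests on that library. Among 5763 genes whose log2 CPM averaged 5 or more, *Igf2* was 1 of 6 that were at least 4-fold lower in WT replicate 1 than in every other library. The others were *Gm5148*, *Gm8210*, *Kirrel*, *Lpp* and *Scamp4*, and in the other libraries 0 to 9 genes met the same criterion. *Scamp4* and *Lpp* were also the nearest profiles to *Igf2*, at root mean square differences of 0.200 and 0.239.

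Rows of the table that overlap *Igf2* did not share the low value of WT replicate 1. The antisense transcript *Igf2os*, which lies partly outside *Igf2*, had 298, 433 and 431 counts in *Hbb*-cKO and 408, 318 and 480 counts in WT. The microRNA gene *Mir483*, in an intron of *Igf2*, had 9, 12 and 12 counts in *Hbb*-cKO and 15, 10 and 19 counts in WT, with WT replicate 1 above all 3 *Hbb*-cKO libraries. The sources used here do not say whether counting used the strand, so reads of *Igf2* and *Igf2os* may be mixed where the genes overlap. The ratio of *H19* to *Igf2* counts within a library was 1.41, 1.31 and 1.35 in *Hbb*-cKO and 6.55, 1.01 and 1.68 in WT. The *Hbb*-cKO ratios were alike and lay within the WT range, with a difference in mean log2 ratio of -0.72 (SE 0.80, exact two-sided permutation p = 0.7, Benjamini-Hochberg p = 0.7 over 2 ratios). Without WT replicate 1 the difference was 0.05. The low *Igf2* value of this library also enters its 0.911% share of counts, and whether it came from the tissue or from the assignment of reads in counting was not tested.

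MicroRNA genes inside these hosts are shown because they are read from the same imprinted transcripts. The mature sequences are from RefSeq (GRCm38.p6), 5′ to 3′, with the seed, bases 2 to 8, in capitals. No seed was shared between them.
mmu-miR-675-5p (*H19*): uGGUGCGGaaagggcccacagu
mmu-miR-675-3p (*H19*): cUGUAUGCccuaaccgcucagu
mmu-miR-483-5p (*Igf2*): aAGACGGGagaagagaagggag
mmu-miR-483-3p (*Igf2*): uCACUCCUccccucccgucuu
mmu-miR-335-5p (*Mest*): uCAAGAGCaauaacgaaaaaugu
mmu-miR-335-3p (*Mest*): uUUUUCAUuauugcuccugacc
Of the rows of the microRNA genes, *Mir675* had 1 count in each library, and *Mir335* had 1, 2 and 3 counts in *Hbb*-cKO and 1, 1 and 3 in WT. *Mir770*, inside *Meg3*, was at 0 counts in all 6 libraries. These were libraries of polyadenylated RNA, and levels of mature microRNAs were not measured in them.

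*Cdkn1c* and *Grb10* restrain growth from the maternal copy. *Cdkn1c* (ENSMUSG00000037664, chr7:143458339-143461050, minus strand) encodes p57, an inhibitor of cyclin-dependent kinases that acts in the exit of growth plate chondrocytes from the cell cycle in mice. It was at 597, 716 and 600 CPM in the *Hbb*-cKO libraries, against 465, 560 and 556 CPM in the WT libraries. Each *Hbb*-cKO library stood above each WT library, and 8.7% of all genes were separated in this direction. The means were 638 ± 39.1 CPM in *Hbb*-cKO, against 527 ± 31.0 CPM in WT, a fold of 1.21 (95% interval 0.965 to 1.52, log2 fold change 0.27, adjusted p = 0.560, edgeR). Markers of proliferation were also higher in *Hbb*-cKO, at a summed 695 to 793 CPM against 430 to 514 CPM in WT, and their part in the *Cdkn1c* level was not tested. *H1f0*, a linker histone, and *Klhdc10* had the profiles nearest to *Cdkn1c*, at root mean square differences of 0.0638 and 0.0709.

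Other brakes on the cell cycle were split in direction. Of 8 tested genes in a list of cyclin-dependent kinase inhibitors and retinoblastoma family members, 4 had a positive and 4 a negative log2 fold change, none was called by edgeR or DESeq2, and the median was -0.05. *Cdkn2c*, an inhibitor of CDK4 and CDK6, was at 58.4, 59.7 and 70.1 CPM in *Hbb*-cKO, against 43.5, 45.8 and 31.7 CPM in WT (log2 fold change 0.64). *Rbl1*, which encodes the pocket protein p107, had a log2 fold change of 0.49. *Cdkn1a*, which encodes p21, was at 132, 129 and 121 CPM in *Hbb*-cKO, against 167, 147 and 237 CPM in WT (log2 fold change -0.53). These 3 were named because they had the smallest unadjusted p of the 8 tested genes. They were the only ones of the 8 that did not overlap between the genotypes, where 17.7% of all genes did not. They were also the only ones of the 8 at an unadjusted p below 0.05, where 10.1% of all genes passed.

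*Grb10* (ENSMUSG00000020176, chr11:11930508-12038683, minus strand) encodes an adaptor that dampens signalling from the insulin and IGF receptors. It was at 550, 684 and 615 CPM in *Hbb*-cKO, against 613, 497 and 737 CPM in WT. The WT values enclosed all 3 *Hbb*-cKO values, and the means were 616 ± 38.8 CPM in *Hbb*-cKO, against 616 ± 69.5 CPM in WT. The fold was 1.00, with a 95% interval of 0.758 to 1.32. *Ireb2* had the nearest profile, at a root mean square difference of 0.0300.

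The IGF axis, in which *Igf2* and *Grb10* act, held no gene called by edgeR or DESeq2 among 17 tested. At an unadjusted p below 0.05, 1 passed, *Igf1*, where 10.1% of all genes passed. The log2 fold change was positive for 5 and negative for 12, with a median of -0.13. *Igf1*, the growth factor that takes over much of the role of *Igf2* after birth, was at 302, 289 and 291 CPM in *Hbb*-cKO, against 261, 226 and 244 CPM in WT, without overlap (log2 fold change 0.27, adjusted p = 0.473, edgeR). *Pappa*, a protease that cleaves IGF-binding proteins, had a log2 fold change of -0.65 with overlapping libraries. *Igfbp6*, an IGF-binding protein with a preference for IGF2, was separated by genotype at a log2 fold change of -0.28 (edgeR, adjusted p = 0.524). Of the 17 genes, 1 was separated as higher and 2 as lower in *Hbb*-cKO, where 8.7% and 8.96% of all genes were.

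*Dlk1* had the largest difference among the 10 genes. *Dlk1* (ENSMUSG00000040856, chr12:109452823-109463336, plus strand) encodes a transmembrane protein with EGF-like repeats, expressed from the paternal copy, that holds precursor cells such as preadipocytes in an undifferentiated state. It was at 8.07, 10.7 and 6.70 CPM in the *Hbb*-cKO libraries, against 26.2, 19.9 and 11.8 CPM in the WT libraries. Each *Hbb*-cKO library lay below each WT library, and 8.96% of all genes were separated in this direction. The nearest values of the genotypes were those of *Hbb*-cKO replicate 2 and WT replicate 3. The means were 8.50 ± 1.18 CPM in *Hbb*-cKO, against 19.3 ± 4.17 CPM in WT, a fold of 0.440 (95% interval 0.269 to 0.722, log2 fold change -1.18, SE 0.31). The adjusted p was 0.277 in edgeR and 0.0210 in DESeq2, so that *Dlk1* was called by DESeq2 alone.

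The direction of *Dlk1* was the same under all 14 other settings, with log2 fold changes of -1.44 to -0.61 and adjusted p-values of 0.0210 to 0.719. The smallest difference, -0.61 (adjusted p = 0.426, edgeR), came from the fit with a covariate for Y-linked expression. WT replicates 1 and 2, which lacked Y-linked transcripts, held the highest *Dlk1* values (26.2 and 19.9 CPM). For *Dlk1*, genotype and Y-linked expression thus cannot be fully told apart. The erythroid markers moved with *Dlk1*, at a summed 8909 to 11871 CPM in *Hbb*-cKO against 13600 to 36969 CPM in WT, with 10 of 10 detected and the same order of the 3 WT libraries. *Erdr1* and *Hbb-bs* had the nearest profiles to *Dlk1*, at root mean square differences of 0.174 and 0.189. The part of erythroid expression in the *Dlk1* difference was not tested. The markers of adipocytes, a fate that *Dlk1* is known to restrain, summed to 733 to 1270 CPM in *Hbb*-cKO, against 605 to 1081 CPM in WT, and overlapped.

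*Meg3* (ENSMUSG00000021268, chr12:109541001-109571726, plus strand) is a maternally expressed non-coding RNA downstream of *Dlk1* in the same imprinted cluster. It was at 71.5, 78.4 and 79.7 CPM in *Hbb*-cKO, against 80.6, 73.7 and 83.9 CPM in WT. The libraries overlapped and lay within 1.17-fold of each other, and the log2 fold change was -0.05 (95% interval -0.30 to 0.19). *Nsmf* and *Sumf1* had the nearest profiles, at root mean square differences of 0.0219 and 0.0227. The ratio of *Dlk1* to *Meg3* counts, which needs no scaling between libraries, was 0.113, 0.137 and 0.0840 in *Hbb*-cKO and 0.325, 0.270 and 0.141 in WT. These ratios did not overlap, although *Hbb*-cKO replicate 2 came close to WT replicate 3. The difference in mean log2 ratio was -1.09 (SE 0.42, exact two-sided permutation p = 0.1, which is the smallest p that 3 against 3 libraries allow, Benjamini-Hochberg p = 0.2 over 2 ratios).

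**Figure D3:**
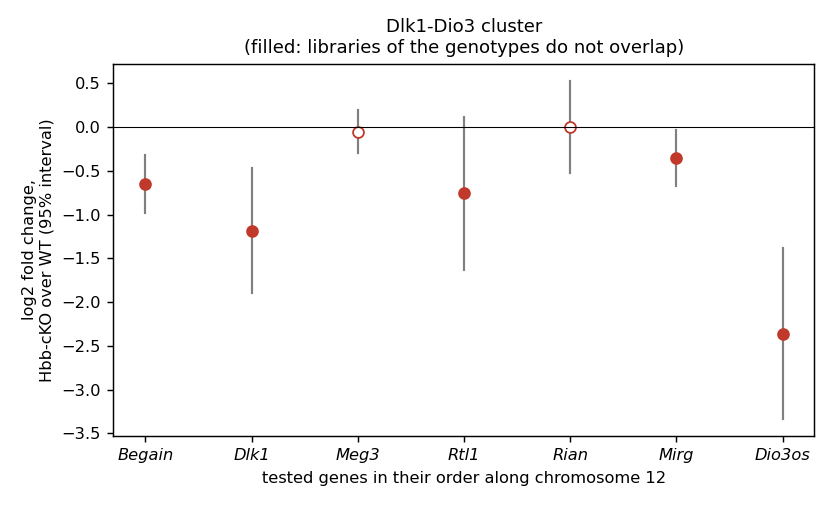
Log2 fold change of *Hbb*-cKO over WT for the 7 tested genes of the *Dlk1*-*Dio3* cluster, left to right in their order on chromosome 12, with 95% intervals of the edgeR fit. Filled points are genes whose *Hbb*-cKO and WT libraries do not overlap. *Begain*, *Dlk1*, *Rtl1*, *Mirg* and *Dio3os* lie below 0, and *Meg3* and *Rian* lie at -0.05 and 0.00.

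Neighbours of *Dlk1* and *Meg3* in this cluster had lower values in *Hbb*-cKO for 4 of 5 tested genes, and none was called by edgeR. The libraries of those 4 did not overlap, where 8.96% of all genes were separated as lower. At an unadjusted p below 0.05, 3 passed, where 5.22% of all genes were lower and passed, and DESeq2 called 2, where it called 1.45% of all genes. *Dio3os*, antisense to the thyroid hormone deiodinase gene *Dio3*, had 3, 8 and 6 counts in *Hbb*-cKO and 34, 20 and 22 counts in WT (log2 fold change -2.36, SE 0.42, adjusted p = 0.116 in edgeR and 0.0105 in DESeq2). *Dio3* itself, at 6, 0 and 4 counts in *Hbb*-cKO and 14, 2 and 6 counts in WT, was too low to be tested.

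*Begain*, which lies upstream of *Dlk1*, was at 11.7, 10.2 and 13.1 CPM in *Hbb*-cKO, against 17.4, 19.3 and 18.3 CPM in WT (log2 fold change -0.65, SE 0.14, adjusted p = 0.184 in edgeR and 0.0272 in DESeq2). The paternally expressed *Rtl1*, a gene derived from a retrotransposon, was at 1.88, 1.55 and 1.70 CPM in *Hbb*-cKO, against 1.98, 2.01 and 4.67 CPM in WT. The maternally expressed *Mirg*, a host of microRNAs, was at 140, 129 and 148 CPM in *Hbb*-cKO, against 152, 174 and 206 CPM in WT (log2 fold change -0.36). The separation was thus wide for *Begain* and narrow for *Rtl1* and *Mirg*. *Rian*, a maternally expressed host of small nucleolar RNAs, overlapped, at 20.6, 16.1 and 16.5 CPM in *Hbb*-cKO, against 23.1, 12.4 and 17.7 CPM in WT. The median log2 fold change of the 5 neighbours was -0.65, and without WT replicate 3 it was -0.23.

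*Mest* (ENSMUSG00000051855, chr6:30723547-30748465, plus strand) encodes a membrane protein of the α/β-hydrolase fold, expressed from the paternal copy in mesodermal tissue. It was at 1127, 986 and 1076 CPM in the *Hbb*-cKO libraries, against 830, 833 and 796 CPM in the WT libraries. Each *Hbb*-cKO library stood above each WT library, and the WT values were close together. The means were 1063 ± 41.2 CPM in *Hbb*-cKO, against 819.7 ± 12.1 CPM in WT, a fold of 1.30 (95% interval 1.06 to 1.58). The log2 fold change was 0.38 (SE 0.12), with an adjusted p of 0.353 in edgeR and 0.0639 in DESeq2, so that *Mest* was called by neither. Over the 14 other settings it ran from 0.34 to 0.43, with adjusted p-values of 0.0639 to 0.813.

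The summed markers of tendon, ligament and fibroblasts had the same order of the *Hbb*-cKO libraries as *Mest*. They summed to 54296, 40929 and 49146 CPM in *Hbb*-cKO, against 34583, 37552 and 33101 CPM in WT, with 11 of 11 detected. *Col1a1*, which also marks osteoblasts, made up most of this sum, at 37581, 24495 and 32978 CPM in *Hbb*-cKO, against 21442, 23546 and 20591 CPM in WT. It also made up most of the osteoblast sum, at 38768, 24957 and 33776 CPM in *Hbb*-cKO, against 22090, 24357 and 21652 CPM in WT. The order of that sum was thus the order of *Col1a1*. Of the other osteoblast markers, *Bglap*, *Bglap2* and *Ibsp* had log2 fold changes of -0.44, -0.78 and -0.14. Those of *Sp7*, *Runx2*, *Dmp1* and *Phex* were 0.20, 0.54, 0.21 and 0.08, and among these markers only *Runx2* was without overlap. The list of tendon, ligament and fibroblast markers was not uniform. *Col1a1*, *Col3a1*, *Dpt* and *Lum* were higher in *Hbb*-cKO without overlap, the other 7 overlapped, and *Prg4*, *Pi16* and *Pdgfra* had log2 fold changes of -0.35, -0.18 and -0.13. *Gm15459*, a predicted gene, and *Col3a1*, a collagen of fibrous tissue and 1 of those markers, had the profiles nearest to *Mest*, at root mean square differences of 0.0260 and 0.0431. *Col3a1* was at 12220, 11351 and 11433 CPM in *Hbb*-cKO, against 8720, 8878 and 8701 CPM in WT. The part of connective tissue or bone in the *Mest* level was not tested. *Mest* overlaps the end of *Copg2* on the opposite strand, which held 853 to 1363 counts, against 13705 to 22811 counts of *Mest*.

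The list of genes near *Mest* and in the *Peg10* cluster of the same chromosome held 9 tested genes, none of them called by edgeR or DESeq2 and 0 at an unadjusted p below 0.05, with a median log2 fold change of 0.02. *Klf14*, a transcription factor gene, came to a log2 fold change of 0.26 (edgeR, adjusted p = 0.576) and *Pon3*, which encodes a lactonase, 0.19 (adjusted p = 0.712, edgeR), both without overlap. They were the 2 of the 9 separated as higher in *Hbb*-cKO, where 8.7% of all genes were. *Ppp1r9a* varied most, at 19.3, 8.62 and 5.05 CPM in *Hbb*-cKO, against 24.4, 25.1 and 8.88 CPM in WT, and the genotypes overlapped.

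*Peg3* and *Plagl1* encode zinc finger proteins expressed from the paternal copy. *Peg3* (ENSMUSG00000002265, chr7:6703892-6730431, minus strand) was at 570, 957 and 799 CPM in *Hbb*-cKO, against 840, 671 and 1132 CPM in WT. *Plagl1* (ENSMUSG00000019817, chr10:13060504-13131694, plus strand), known for regulating other imprinted genes in mice, was at 268, 484 and 364 CPM in *Hbb*-cKO, against 417, 293 and 537 CPM in WT. Both overlapped between the genotypes, and both were lowest in *Hbb*-cKO replicate 1 and highest in WT replicate 3. The log2 fold changes were -0.18 for *Peg3* (95% interval -0.75 to 0.39) and -0.16 for *Plagl1* (95% interval -0.80 to 0.48), and that of each was positive without *Hbb*-cKO replicate 1 or without WT replicate 3. A covariate for Y-linked expression moved them to -0.54 and -0.55, in a fit that leans on WT replicate 3, the library in which both were highest.

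The spread of these genes lay within the genotypes and was shared. Centred on their own means, the profiles of *Peg3* and *Plagl1* over the 6 libraries were the most alike of the 45 pairs of imprinted genes, with a root mean square difference of 0.0713 in log2 CPM. Next were *Meg3* and *Ndn*, at 0.0880, which both varied little. *Peg3* and *Grb10* differed by 0.173, with the same highest library and the same 2 lowest libraries. These are descriptions over 6 libraries that share scaling and tissue composition. Among all other genes, *Itga10*, a collagen-binding integrin of chondrocytes, and *Dyrk1a*, a protein kinase gene, were nearest to *Peg3*, at 0.0742 and 0.0755. *Zim1*, an imprinted neighbour of *Peg3* that is expressed from the maternal copy, was next at 0.0774. *Ivns1abp* and *Itga10* were nearest to *Plagl1*, at 0.0772 and 0.0836.

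**Figure D4:**
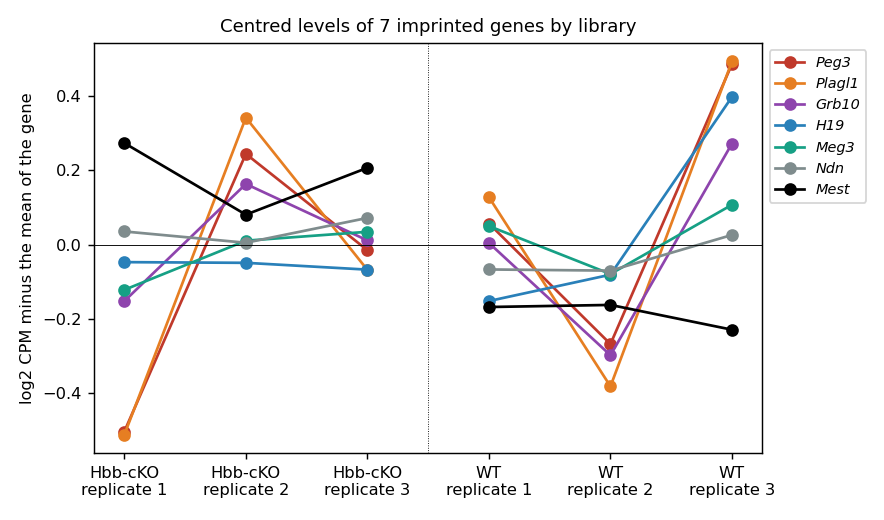
Log2 CPM of 7 imprinted genes in each library, minus the mean of the gene over the 6 libraries, with *Hbb*-cKO libraries left of the dotted line and WT libraries right of it. *Peg3* and *Plagl1* run together, lowest in *Hbb*-cKO replicate 1 and highest in WT replicate 3, whereas *Mest* separates the genotypes and *Ndn* and *Meg3* stay near 0.

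Near *Peg3*, only *Usp29* and *Zim1* could be tested. *Zim1* was at 224, 327 and 293 CPM in *Hbb*-cKO, against 314, 270 and 414 CPM in WT (log2 fold change -0.24, adjusted p = 0.744, edgeR). *Usp29*, a deubiquitinase gene expressed from the paternal copy, was at 24.2, 31.7 and 26.9 CPM in *Hbb*-cKO, against 31.0, 33.9 and 32.9 CPM in WT (log2 fold change -0.24, adjusted p = 0.590, edgeR). Both overlapped between the genotypes, and neither was called by edgeR or DESeq2 or passed at an unadjusted p below 0.05.

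*Ndn* (ENSMUSG00000033585, chr7:62346569-62350262, plus strand) encodes necdin, a paternally expressed protein of the MAGE family that restrains proliferation. It was at 205, 201 and 210 CPM in *Hbb*-cKO, against 191, 191 and 204 CPM in WT. It was the steadiest of the 10 genes, with an SD within genotype of 0.05 in log2 CPM against a median of 0.23 over all tested genes, and its libraries overlapped. The log2 fold change was 0.07 (95% interval -0.16 to 0.31). *Cct8*, a chaperonin subunit, and *Anapc4*, a subunit of the anaphase-promoting complex, had the nearest profiles, at root mean square differences of 0.0224 and 0.0231. Of 7 tested genes in the surrounding cluster, none was called by edgeR or DESeq2, 0 passed at an unadjusted p below 0.05, and the median log2 fold change was -0.00. *Magel2*, *Mkrn3* and *Snrpn* had log2 fold changes of 0.28, -0.29 and -0.35, all with overlap.

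The promoters of *Dlk1*, *Mest*, *Peg3* and *Plagl1* are shown because these genes either differed most between the genotypes or ran together. Each is the 250 bases before a RefSeq start (GRCm38.p6), 5′ to 3′ on the strand of the gene, with CpG dinucleotides, the letters that carry imprinting methylation, in capitals. For *Mest*, which has 3 starts, the one shown is among those with the most CpG.
*Dlk1* (chr12:109452573-109452822, plus strand): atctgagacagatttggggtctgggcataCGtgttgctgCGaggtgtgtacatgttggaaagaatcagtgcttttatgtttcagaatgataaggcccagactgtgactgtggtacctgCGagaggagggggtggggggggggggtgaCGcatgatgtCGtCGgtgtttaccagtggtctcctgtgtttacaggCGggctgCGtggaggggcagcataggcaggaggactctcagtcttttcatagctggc
*Mest* (chr6:30737803-30738052, plus strand): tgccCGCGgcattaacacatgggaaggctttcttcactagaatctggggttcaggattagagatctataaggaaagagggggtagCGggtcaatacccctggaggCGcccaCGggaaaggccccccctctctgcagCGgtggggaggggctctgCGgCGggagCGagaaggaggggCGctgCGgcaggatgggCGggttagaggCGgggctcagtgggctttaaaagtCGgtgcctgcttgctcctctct
*Peg3* (chr7:6730420-6730669, minus strand): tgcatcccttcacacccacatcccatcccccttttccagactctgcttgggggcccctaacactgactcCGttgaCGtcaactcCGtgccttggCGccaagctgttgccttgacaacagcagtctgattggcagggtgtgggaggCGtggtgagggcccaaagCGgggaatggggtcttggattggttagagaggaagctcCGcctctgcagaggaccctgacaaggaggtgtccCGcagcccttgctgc
*Plagl1* (chr10:13090582-13090831, plus strand): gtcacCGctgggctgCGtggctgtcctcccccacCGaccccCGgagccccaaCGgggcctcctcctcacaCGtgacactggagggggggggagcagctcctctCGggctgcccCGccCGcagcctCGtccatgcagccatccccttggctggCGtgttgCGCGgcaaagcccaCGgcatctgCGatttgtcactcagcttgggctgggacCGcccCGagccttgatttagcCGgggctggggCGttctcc
These windows held 8, 14, 8 and 19 CpG. Over all 15 windows of the 8 matched genes the number ran from 0 to 40, and it was above the median of 6 over 32851 promoters in 11. The motif GGGGCCCC, which the product of *Plagl1* is known to bind and which reads the same on both strands, was in 1 of the 15, that of *Peg3*, 201 bases before the start, and in 0.889% of all promoters. The TATA motif TATAAA, searched on both strands, was in 1 of the 15, of *Meg3*, and in 12.4% of all promoters. Methylation and binding were not measured in these libraries.

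Around the *H19*-*Igf2* and *Kcnq1ot1* regions, 13 neighbours were tested, with a median log2 fold change of -0.05, and none was called by edgeR or DESeq2. At an unadjusted p below 0.05, 2 passed, *Kcnq1ot1* and *Ascl2*, where 10.1% of all genes passed. *Kcnq1ot1*, the paternally expressed non-coding RNA that silences the neighbourhood of *Cdkn1c*, had 264, 454 and 463 counts in *Hbb*-cKO, against 467, 459 and 431 counts in WT. Scaled to CPM, the genotypes did not overlap (log2 fold change -0.44, SE 0.17, adjusted p = 0.455, edgeR). Of the 13 neighbours, 2 were separated as lower and 1 as higher in *Hbb*-cKO, where 8.96% and 8.7% of all genes were. *Ascl2*, a maternally expressed transcription factor gene of the same domain, had a log2 fold change of -1.04 at 0.251 to 0.802 CPM in *Hbb*-cKO, against 0.923 to 1.09 CPM in WT. *Phlda2*, a maternally expressed gene that restrains placental growth, had a log2 fold change of 0.73 at 0.625 to 1.04 CPM in *Hbb*-cKO, against 0.404 to 0.659 CPM in WT, with overlap. Both of these had few counts.

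Other imprinted genes lay on both sides of 0. Counted once each, 56 other imprinted genes and cluster neighbours were tested, 27 with a positive and 29 with a negative log2 fold change and a median of -0.01. None was called by edgeR, 7 passed at an unadjusted p below 0.05, a share near the 10.1% of all genes, and DESeq2 called *Begain* and *Dio3os*, where it called 1.45% of all genes. The libraries did not overlap for 4 higher and 10 lower in *Hbb*-cKO, where 8.7% and 8.96% of all genes were separated in these directions. The median was -0.17 over 23 genes listed as paternally expressed and -0.00 over 28 listed as maternally expressed, and the difference between the lists was not tested. Which parental copy was transcribed was not measured in these libraries. Among the paternally expressed ones, *Impact*, a regulator of the translational stress response, was at 33.5, 36.9 and 35.0 CPM in *Hbb*-cKO, against 50.5, 39.5 and 46.5 CPM in WT (log2 fold change -0.37, adjusted p = 0.353, edgeR). In the list of maternally expressed genes, *Meis1*, a homeobox gene of limb patterning, came to a log2 fold change of -0.41 (adjusted p = 0.494, edgeR). Neither gene overlapped between the genotypes.

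Enzymes and factors that set, keep or remove DNA methylation and other imprint marks had positive log2 fold changes for 13 of 16 genes, with a median of 0.14. None was called by edgeR, 4 of 16 passed at an unadjusted p below 0.05, where 10.1% of all genes passed, and DESeq2 called 1, *Uhrf1*, and 1.45% of all genes. *Uhrf1*, which brings the maintenance methyltransferase to replicating DNA, was at 41.3, 36.8 and 48.7 CPM in *Hbb*-cKO, against 28.7, 29.2 and 24.0 CPM in WT (log2 fold change 0.63, SE 0.14, adjusted p = 0.210 in edgeR and 0.0284 in DESeq2). *Dnmt3b*, a de novo methyltransferase, was at 8.81, 7.67 and 6.61 CPM in *Hbb*-cKO, against 5.09, 4.50 and 6.00 CPM in WT. *Tet2*, which oxidises methylated cytosine, was lower, at 28.5, 30.1 and 28.2 CPM in *Hbb*-cKO, against 39.5, 32.3 and 51.2 CPM in WT. Each of these 3 was separated by genotype, among 6 of the 16 genes that were, against 17.7% of all genes. The proliferation markers given beside *Cdkn1c* were higher in the same libraries, and their part was not tested. The median of the 16 genes was 0.000123 in the fit that held a covariate for Y-linked expression.

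Factors of the fetal growth programme, which includes RNA-binding proteins that act on *Igf2* transcripts, held 9 tested genes with a median log2 fold change of 0.11. None was called by edgeR or DESeq2, and 1, *E2f3*, passed at an unadjusted p below 0.05, where 10.1% of all genes passed. *E2f3*, a cell cycle transcription factor gene, was at 17.3, 21.5 and 20.4 CPM in *Hbb*-cKO, against 15.5, 10.9 and 14.5 CPM in WT (log2 fold change 0.53, adjusted p = 0.338, edgeR). *Mycn* and *Ezh2*, a histone methyltransferase gene, had log2 fold changes of 0.49 and 0.33. All 3 were separated by genotype as higher in *Hbb*-cKO, where 8.7% of all genes were. Of the 9 genes, 1 other was separated as lower, where 8.96% of all genes were.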

How the data were processed

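Poly(A) RNA of knee joint cartilaginous tissue from P6 mice was sequenced in 3 *Hbb*-cKO and 3 WT libraries. The authors deposited whole-number counts per gene, not normalised. Tools in the notes of the submitters are HISAT2 2.1.0, fastp 0.19.5, CASAVA 1.8, edgeR and StringTie. Their settings, the genome build, the strand and the test used were not given in the sources used here. Positions matched GENCODE M21 (GRCm38) for 99.4% of identifiers found there. No column of values went unused.

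Libraries were grouped by labelled genotype. Any pair differed by more than sampling noise (chi-square per gene of at least 22.2). Counts were filtered (edgeR, minimum count 10, minimum total 15), scaled by TMM and tested by the robust quasi-likelihood test of edgeR 4.0.16 on R 4.3.3, with Benjamini-Hochberg adjustment and 0.05 as threshold. A prior count of 2 went into log2 CPM. Exon lengths were unions over transcripts. Alternatives were DESeq2 1.42.0, RLE factors, other filters, TMM with globin genes left out, a replicate block, covariates and leaving out each library. The imprinted genes and gene lists were chosen with earlier results of these data known. The text names the 10 genes, in each list up to 3 genes of smallest unadjusted p, and for each of the 10 the 2 nearest profiles whose log2 CPM averaged 5 or more, of which 1 is not reported here. Further genes, such as *Rian*, *Dio3*, *Col3a1* as a marker and the genes low in WT replicate 1, were named after their values were seen.

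The fit was tested on simulated counts with known changes.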

Additional observations from a re-analysis of the deposited data

How the results depend on the processing

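The number of genes called was 18 and became 249 with DESeq2, 60 without a filter, 52 with Y-linked expression and 29 with skeletal muscle markers as a covariate, 4 with the replicate block, and 1 to 39 when 1 library was left out. DESeq2 called 1 of the 10 imprinted genes and 3 genes of the other lists (*Begain*, *Dio3os* and *Uhrf1*), and no other setting called any. Replicate numbers did not pair the libraries (correlations of deviations -0.03, -0.11 and -0.03 for the same number), and the replicate block changed no call of the imprinted genes. Signs turned for 6 of the 10 genes, none of them called in any setting. With 1 library left out, the log2 fold change ran from -0.226 to 0.0624 for *H19*, from -0.261 to 0.653 for *Igf2*, from -0.0882 to 0.000940 for *Meg3*, from -0.363 to 0.0383 for *Peg3*, from -0.116 to 0.153 for *Grb10* and from -0.396 to 0.0680 for *Plagl1*. With Y-linked expression as a covariate, it was -0.0932 for *Igf2* and -0.245 for *Grb10*, and with a filter of CPM above 1 in 3 libraries -0.000799 for *Grb10*. The cause of these turns was not tested. *Dlk1*, *Mest*, *Cdkn1c* and *Ndn* kept their sign under all 14 settings. The differences in log2 ratio ran from -1.30 to 0.05 for *H19* to *Igf2* and from -1.44 to -0.84 for *Dlk1* to *Meg3* with 1 library left out. The 95% intervals given with each gene are what 3 libraries of each genotype allow, and a p that missed the threshold does not show equal levels.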
